A study of Mus musculus with 6 samples.

Results

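This account follows 10 genes, 8 of which encode secreted proteins of the extracellular matrix or its turnover, that stood out in the control library of differentiated mouse neural stem cells. They are Spp1, Fn1, Col1a1, Col1a2, Col3a1, Bgn, Timp1, Mmp2, S100a6 and Tm4sf1, 10 of the 29267 genes in the deposited tables. They were picked by their measured values, because their expected counts and TPM (a level per transcript length, scaled to the same total in every library) were high in that library, so their excess there is a description and supports nothing. The cells were neural stem cells labelled as the OG2 strain, a mouse strain with a green fluorescent reporter driven by the Pou5f1 promoter, at passage 8. RNA was sequenced from cells kept as stem cells (NSC) and from cells that had been differentiated, under a label that reads D2. Each state had a control without ligand, cells with naloxone, which blocks opioid receptors, and cells with DAMGO, a peptide that activates the mu type of these receptors. The series asks how naloxone acts on proliferation and differentiation, and neither doses nor exposure times were found in the labels. Each of the 6 groups held 1 library, and nothing in the labels tells whether they derive from separate cultures.

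Totals were 8417076 to 13561250 expected counts per library, and 0 counts of a gene allow up to 0.221 to 0.356 CPM (counts scaled to a common library size, with TMM factors), for counting error only. Stem and progenitor markers were present in every library, with all 12 listed genes detected, Sox2 at 367 to 631 CPM and Nes at 394 to 1852 CPM. All 10 genes passed the filter of a mean of 10 counts over the libraries, but 4 of them, Col3a1, Bgn, Mmp2 and S100a6, passed only because of the D2 control. In 8 of the 10 the mean was between 10 and 50 counts, so sampling error is large. Fewer cells that make these transcripts and less RNA per cell cannot be told apart in such bulk libraries.

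The extracellular matrix is the protein scaffold that cells secrete around themselves. Fibrillar collagens give it strength, fibronectin and osteopontin tie it to integrin receptors on the cell surface, small proteoglycans organise the fibrils, and metalloproteinases with their inhibitors set its turnover. In the brain, fibrillar collagens are found mainly in the meninges and around vessels, whereas neural tissue itself is rich in hyaluronan and large proteoglycans. S100a6, a calcium-binding protein inside cells, and Tm4sf1, a membrane protein of the L6 family, are not matrix proteins, so the name of matrix genes holds for the other 8.

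Promoter windows of 4 of the genes are shown because they stand for the patterns described below: Spp1 had the largest excess in the D2 control, Col1a2 and Col3a1 were high in 2 of the libraries, and S100a6 was the member that rose with differentiation. The windows run from 250 bases before to 50 bases after the transcription start, are written 5′ to 3′ on the gene's strand and come from RefSeq (GRCm38.p6, the mm10 build). They lie at chr5:104434861-104435160, chr6:4505368-4505667, chr1:45311288-45311587 and chr3:90612644-90612943, all on the plus strand. Capitals mark matches on either strand to 6 motifs: the TATA box TATAAA, the CCAAT box that NF-Y binds, the Sp1 motif GGGCGG, the AP-1 motif TGANTCA, the TEAD motif GGAATG and the E-box CACGTG.
Spp1: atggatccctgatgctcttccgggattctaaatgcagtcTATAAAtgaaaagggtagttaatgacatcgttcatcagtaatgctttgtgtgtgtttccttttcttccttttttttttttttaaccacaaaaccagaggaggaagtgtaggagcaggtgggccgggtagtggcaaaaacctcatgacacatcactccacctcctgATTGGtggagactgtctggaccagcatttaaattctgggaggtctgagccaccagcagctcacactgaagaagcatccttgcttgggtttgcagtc
Col1a2: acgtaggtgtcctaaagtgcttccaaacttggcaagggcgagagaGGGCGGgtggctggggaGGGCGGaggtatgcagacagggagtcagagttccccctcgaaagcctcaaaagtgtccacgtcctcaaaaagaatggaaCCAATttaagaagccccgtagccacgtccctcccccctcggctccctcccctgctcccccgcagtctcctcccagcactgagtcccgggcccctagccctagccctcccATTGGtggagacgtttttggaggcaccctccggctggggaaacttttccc
Col3a1: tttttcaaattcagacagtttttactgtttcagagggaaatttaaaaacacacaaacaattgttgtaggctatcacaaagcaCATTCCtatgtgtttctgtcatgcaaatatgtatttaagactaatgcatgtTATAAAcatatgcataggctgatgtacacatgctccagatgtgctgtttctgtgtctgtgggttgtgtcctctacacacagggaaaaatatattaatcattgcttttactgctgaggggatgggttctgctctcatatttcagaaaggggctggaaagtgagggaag
S100a6: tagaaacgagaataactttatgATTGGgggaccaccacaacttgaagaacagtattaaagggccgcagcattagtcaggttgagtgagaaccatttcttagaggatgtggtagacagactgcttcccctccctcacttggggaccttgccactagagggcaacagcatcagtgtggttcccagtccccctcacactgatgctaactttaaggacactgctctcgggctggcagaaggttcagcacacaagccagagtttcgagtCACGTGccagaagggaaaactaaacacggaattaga
Windows were matched for 7 of the 10 genes. CCAAT was found in 5 of the 7 (Spp1, Col1a2, S100a6, Timp1 and Tm4sf1) against 37.4% of 32851 windows of the same length. GGGCGG was found in 3 of the 7 (Col1a2, Bgn and Timp1) against 35.7%, and TATAAA in 2 (Spp1 and Col3a1) against 13.6%. GGAATG was found in 2 (Col3a1 and Timp1) against 14.7%, CACGTG in 1 (S100a6) against 7.15%, and TGANTCA in 0 against 7.81%. None of these letters was common to all 7 windows. A further RefSeq start of Spp1 had no match in its window. No matches of different motifs overlapped in the windows shown, and a match is a run of letters and not a binding site.

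Spp1 and Fn1, the adhesive glycoproteins, were the most abundant of the 10 in the D2 control by CPM and were low in the D2 libraries with ligand. Spp1 (chromosome 5, 104435118 to 104441050, mm10) encodes osteopontin, a secreted integrin and CD44 ligand. It had 115, 125 and 86 expected counts in NSC (control, naloxone, DAMGO) and 622, 3 and 3 in D2 in the same order. The D2 control thus stood above every other library, the 3 NSC libraries lay close together, and the D2 ligand libraries were near 0. In CPM the Spp1 level in the D2 control was 172-fold that with naloxone (exact 95% counting interval 58.6 to 837) and 180-fold that with DAMGO (61.2 to 874). It was 5.62-fold the level in the NSC control (4.60 to 6.92). Per transcript length the D2 control held 98.3 TPM of Spp1, the highest of the 10 genes.

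Fn1 (chromosome 1, 71585520 to 71653200) encodes fibronectin. It had 255, 386 and 219 counts in NSC and 565, 94 and 95 in D2, so the D2 control was again above the NSC libraries and these above the D2 ligand libraries, with a smaller range than for Spp1. The D2 control was 4.99-fold D2 with naloxone (4.01 to 6.28) and 5.16-fold D2 with DAMGO (4.14 to 6.48). Fn1 was the only member with fractional expected counts, in all 6 libraries, which means that some of its reads were divided between features.

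Type I and type III collagen and biglycan shared another pattern: they were high in the D2 control and also in the NSC library with naloxone. Col1a1 (chromosome 11, 94936224 to 94953042), the alpha-1 chain of type I collagen, had 10, 49 and 5 counts in NSC and 49, 7 and 6 in D2. Col1a2 (chromosome 6, 4504814 to 4541544), the alpha-2 chain, had 4, 57 and 0 in NSC and 25, 1 and 8 in D2. Its highest level was therefore in NSC with naloxone, at 4.21 CPM against 2.45 in the D2 control, and it is the exception among the 10, since the other 9 were highest in the D2 control. Col3a1 (chromosome 1, 45311538 to 45349706), the chain of type III collagen, had 1, 19 and 0 counts in NSC and 40, 3 and 4 in D2. Bgn (chromosome X, 73483602 to 73495933), the small proteoglycan biglycan, had 3, 31 and 0 in NSC and 50, 3 and 6 in D2. For all 4 genes the same 2 libraries stood above the other 4.

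The 4 genes together had 156 counts in NSC with naloxone and 164 in the D2 control, against 5 to 24 in the other libraries. They made up 20.6% of the counts of the 10 genes in NSC with naloxone and 10.2% in the D2 control. The D2 control exceeded D2 with naloxone between 5.81-fold for Col1a1 (2.62 to 15.2) and 20.8-fold for Col1a2 (3.40 to 852). It exceeded D2 with DAMGO between 2.71-fold for Col1a2 (1.18 to 6.95) and 8.67-fold for Col3a1 (3.13 to 33.4). Between the 2 libraries in which they were high, Col1a1 was not distinguishable (D2 control over NSC with naloxone 1.33-fold, 0.874 to 2.01). Col1a2 was lower in the D2 control than in NSC with naloxone (0.582-fold, 0.348 to 0.946), and Col3a1 was higher (2.79-fold, 1.58 to 5.10). These intervals hold counting error only.

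Levels per transcript length follow the counts less closely for the collagens, because the deposited gene length is a mean over transcripts and moved between libraries. Col1a1 was assigned 5930 bases in the NSC control and 1560 in NSC with DAMGO, so it stood at 0.350 and 0.800 TPM although its counts were 10 and 5. Col1a2 was assigned 5347 bases in the D2 control and 2703 in D2 with DAMGO, giving 1.01 and 0.740 TPM from 25 and 8 counts. On the scale of log2(TPM + 1), 9 of the 10 genes remained at least 2-fold higher in the D2 control than in each D2 ligand library, the exception being Col1a2.

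**Figure D1:**
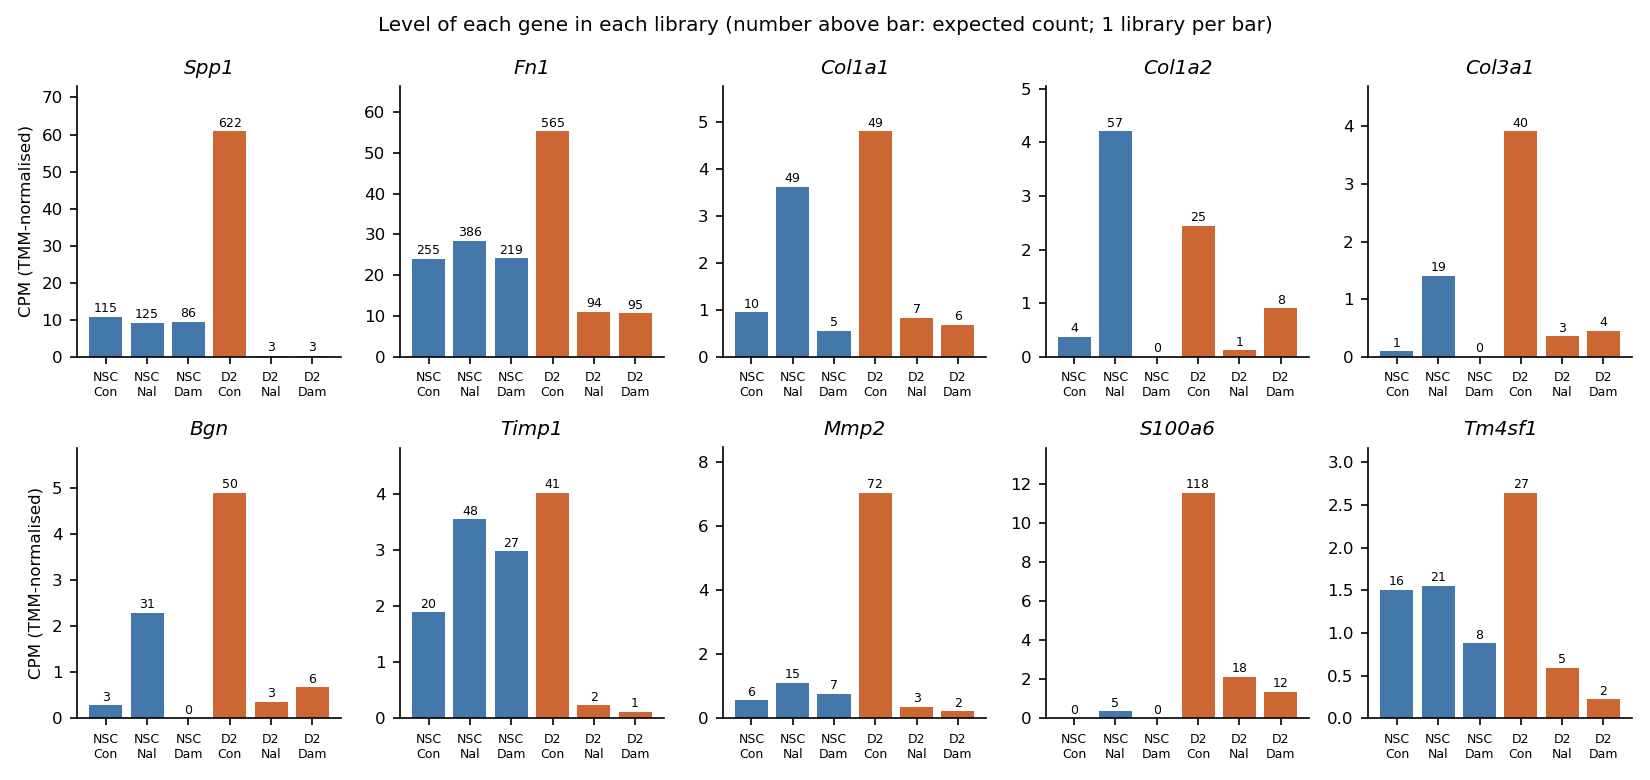
Level of the 10 genes in each library, in TMM-normalised CPM (vertical axis, a separate scale per gene), with the expected count above each bar; blue bars are NSC, orange bars D2, and each bar is 1 library without replicate. Col1a1, Col1a2, Col3a1 and Bgn show a second high bar in NSC with naloxone, whereas Spp1 (622 counts) and Mmp2 (72 counts) are high in the D2 control alone.

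The genes of matrix turnover were likewise high in the D2 control, and Timp1 was also well detected in NSC. Mmp2 (chromosome 8, 92827291 to 92853420) encodes a metalloproteinase that cleaves gelatin and type IV collagen. It had 6, 15 and 7 counts in NSC and 72, 3 and 2 in D2, so the D2 control was 19.9-fold D2 with naloxone (6.55 to 98.9) and 31.2-fold D2 with DAMGO (8.33 to 263). Timp1 (chromosome X, 20870166 to 20874735), a secreted metalloproteinase inhibitor, had 20, 48 and 27 counts in NSC and 41, 2 and 1 in D2. Its D2 control level of 4.02 CPM was close to the 3.54 CPM of NSC with naloxone (1.13-fold, 0.728 to 1.76). Timp1 lies within Syn1, a neuronal synapsin gene on the opposite strand, and the library kit does not mark strand. Syn1 had 345, 393 and 228 counts in NSC and 461, 370 and 416 in D2, so it did not share the low values of Timp1 in the D2 ligand libraries.

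S100a6 and Tm4sf1 were the 2 members outside the matrix. S100a6 (chromosome 3, 90612882 to 90624181) had 0, 5 and 0 counts in NSC and 118, 18 and 12 in D2, and it was the member that was higher in all 3 D2 libraries than in any NSC library. The D2 control was 5.44-fold D2 with naloxone (3.30 to 9.50) and 8.52-fold D2 with DAMGO (4.70 to 17.0). Against the 0 counts of the NSC control, the exact 95% counting interval put the D2 control at least 32.7-fold higher. Tm4sf1 (chromosome 3, 57285611 to 57301988) had 16, 21 and 8 counts in NSC and 27, 5 and 2 in D2. Its D2 control was not distinguishable from the NSC control (1.75-fold, 0.911 to 3.48).

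Of 13216 genes tested, 119 (0.9%) were at least 2-fold higher in the D2 control than in D2 with naloxone and 111 (0.84%) than in D2 with DAMGO, on log2 CPM with a prior count of 2. The 10 genes are among the 44 (0.333%) that exceeded both, as the way they were picked implies. Among the 2179 genes with a mean of 10 to 50 counts, where sampling makes such folds more frequent, the shares were 4.82%, 4.36% and 1.79%. Ranked by the smaller of the 2 ratios, they ran from rank 1 (Spp1) to rank 30 (Col1a2). Directly below Spp1 stood Pgk1-rs7, Gm28042, B430305J03Rik and Gm9774, which were not picked and had 0 counts in both D2 ligand libraries. Further genes that were not picked included the imprinted genes Igf2, with 71, 8 and 5 counts in D2, and H19, with 137, 31 and 17. All of these were named after their values were seen. Between D2 with naloxone and D2 with DAMGO, Col1a2 alone differed by 2-fold or more, being lower with naloxone, against 0.961% of tested genes (4.54% of those with 10 to 50 mean counts). Higher with naloxone by 2-fold were 0 members, against 0.832% and 4.31%. The interval of its ratio was 0.00294 to 0.973. For the other 9 genes the interval of this ratio included 1, from the narrowest, 0.768 to 1.39 for Fn1, to 0.109 to 123 for Timp1, so most of these ratios are poorly known.

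The genes were picked for the D2 control with the NSC values also known, so the NSC comparisons are not independent of the choice. In NSC, 5 of the 10 were at least 2-fold higher with naloxone than in the control. The 5 were Col1a1, Col1a2, Col3a1, Bgn and S100a6. Of these, Col3a1, Bgn and S100a6 passed the filter on low counts only through the D2 control. Over all tested genes 0.673% passed the same fold, and with genes filtered without the D2 control it was passed by Col1a1 and Col1a2 of 6 members, against 0.59%. Among genes with a mean of 10 to 50 counts 3.67% did so, against 5 of the 8 members in that range. A level at least 2-fold lower with naloxone was found for 0 members, against 0.348% of all tested genes and 1.7% of those with 10 to 50 mean counts. Col1a2 was 11.2-fold higher (4.13 to 42.4), Bgn 8.09-fold (2.52 to 41.4), Col3a1 14.9-fold from 1 count in the control (2.37 to 618) and Col1a1 3.84-fold (1.92 to 8.50). For S100a6, with 5 counts against 0, the interval included 1. The same 5 genes were at least 2-fold higher with naloxone than with DAMGO as well, which 0.189% of all tested genes and 1.06% of the genes with 10 to 50 mean counts were relative to both. With genes filtered without the D2 control, Col1a1 and Col1a2 of 6 members exceeded both, against 0.159%. Counts that include Col3a1, Bgn and S100a6 support nothing, since the D2 control carried these genes past the filter. Those of Col1a1 and Col1a2 with genes filtered without the D2 control support nothing either. Both genes passed that filter only through NSC with naloxone, with 49 and 57 counts, against at most 10 in each other library it used.

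The other 5 members were within 2-fold of the control in NSC with naloxone. The NSC naloxone to control ratio was 0.851 for Spp1 (0.656 to 1.11), 1.03 for Tm4sf1 (0.511 to 2.11) and 1.96 for Mmp2 (0.718 to 6.16), each with 1 inside the interval. For Fn1 it was 1.19 (1.01 to 1.39) and for Timp1 1.88 (1.09 to 3.34). With DAMGO, 0 members were at least 2-fold higher than in the NSC control against 0.583% of tested genes and 3.17% of those with 10 to 50 mean counts. Col1a2 and Bgn were at least 2-fold lower, against 0.651% and 3.07%, but from 4 and 3 counts to 0, and both intervals included 1. These are comparisons of 1 library with 1 library, so they carry no test and show a difference between libraries, which cannot be told apart from one between treatments.

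**Figure D2:**
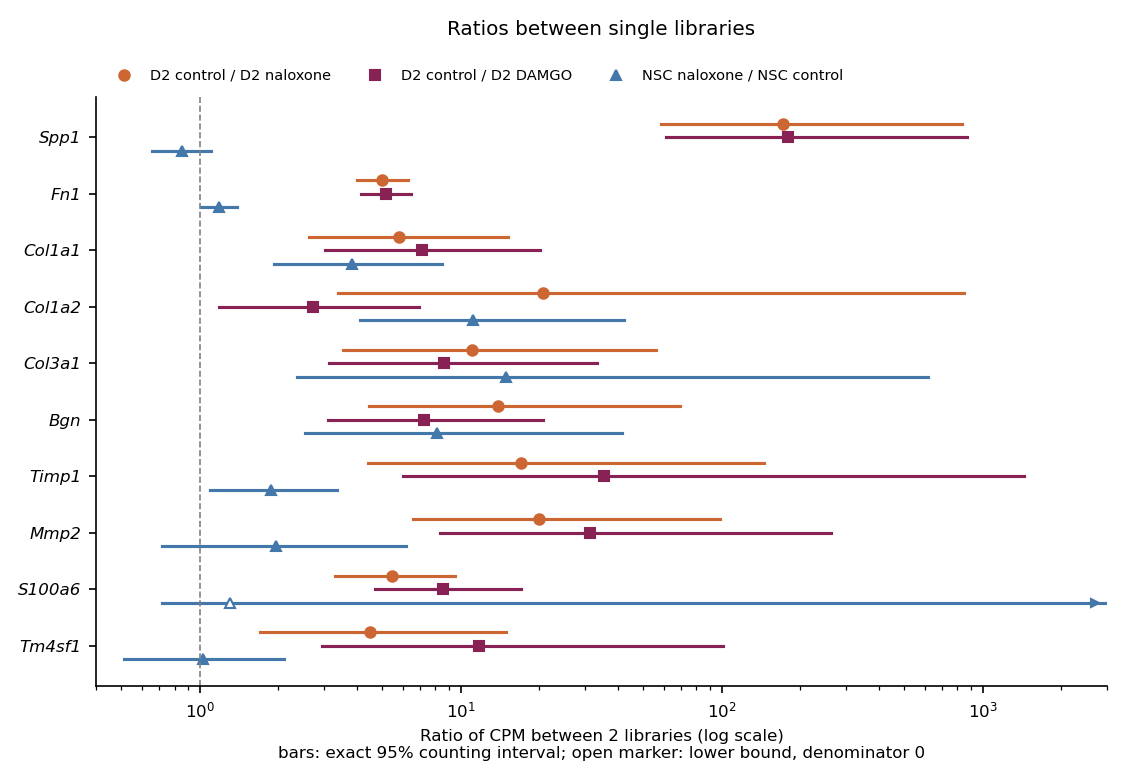
Ratio of CPM between 2 libraries for each gene on a log axis: the D2 control over D2 with naloxone (circles), the D2 control over D2 with DAMGO (squares) and NSC with naloxone over the NSC control (triangles), with exact 95% counting intervals as bars and an open marker where the denominator had 0 counts. The triangles of Col1a1 (3.84), Col1a2 (11.2), Col3a1 (14.9) and Bgn (8.09) lie right of 1 with their whole interval, while that of Spp1 (0.851) does not.

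Over all tested genes, 44 were at least 2-fold above both other libraries of their state in the D2 control and 25 in NSC with naloxone, and 7 were in both sets. These 7 are 15.9% of the D2 set and 28% of the NSC set. They were Bgn, Col1a1, Col1a2, Col3a1 and S100a6, with H19 and a gene known here only by its identifier, ENSMUSG00000103565, both named after their values were seen. The 5 members were in the D2 set by the way they were picked, so these shares support nothing about them. Of the 5, Col3a1, Bgn and S100a6 also passed the filter only through the D2 control. The 10 members correlated with each other over the 6 libraries with Pearson coefficients of log2(CPM + 1) between 0.0444 (Timp1 and S100a6) and 0.991 (Spp1 and Fn1), with a median of 0.739 over 45 pairs. Among the closest pairs were Col3a1 and Bgn (0.989). All pairs share the 6 libraries and the D2 control, for which the genes were picked.

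**Figure D3:**
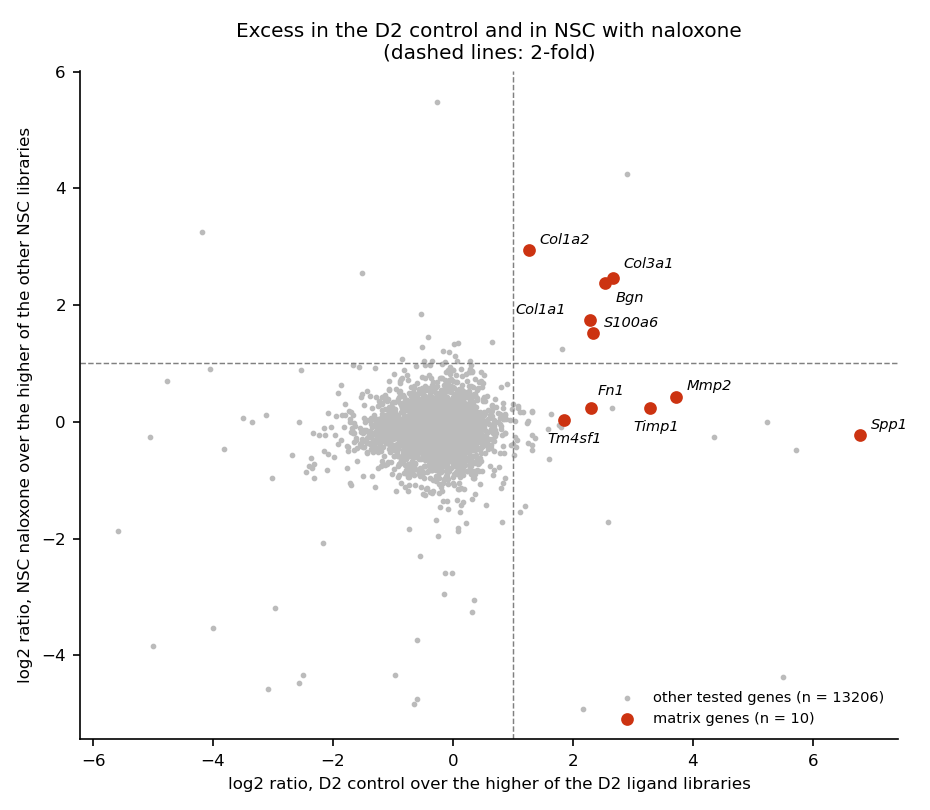
Each point is 1 of the 13216 tested genes, placed by its log2 ratio of the D2 control over the higher of the D2 ligand libraries (horizontal) and of NSC with naloxone over the higher of the other NSC libraries (vertical), with dashed lines at 2-fold and the 10 genes in red. All 10 lie right of the vertical line, by the way they were picked, and 5 of them lie above the horizontal line. Of these 5, Col3a1, Bgn and S100a6 were tested only through the D2 control.

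The change with differentiation was tested in the ligand libraries alone, because the D2 control had chosen the genes. The D2 libraries with naloxone and DAMGO were compared with the NSC libraries with the same ligands, 2 libraries against 2. The test was edgeR's quasi-likelihood test over all 13216 genes. Its p-values rest mostly on a spread shared over all tested genes, with 13.8 prior against 2 residual degrees of freedom. The 2 libraries of a state had different ligands and are not replicates of a condition. Spp1, Fn1 and Timp1 fell most firmly in this comparison. Of the 10, 6 fell against 38.2% of tested genes and 1 rose against 37.9%. Among the 8 members with 10 to 50 mean counts, 4 fell and 1 rose, against 25.9% and 30% of the genes in that range. Calls in either direction are thus common here. With genes filtered without the D2 control, 6 members were tested, of which Spp1, Fn1, Col1a1, Timp1 and Tm4sf1 fell and 0 rose, against 38.2% and 37.9%. Col1a1, Col1a2 and Tm4sf1 passed that filter only with NSC with naloxone counted, so their part in these counts supports nothing. Col3a1, Bgn, Mmp2 and S100a6 entered the main comparison only through the D2 control, so the counts over the 10 genes and over the 8 support nothing. The comparison is not wholly free of the choice of genes in another way, since a low level in the D2 ligand libraries was part of what made the D2 control stand out.

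Spp1 fell from 9.35 ± 0.167 CPM (SD, n = 2) in NSC to 0.346 ± 0.0105 CPM in D2, which is -4.71 on the log2 scale (SE 0.33; adjusted p = 1.38e-09 by edgeR). The level of Timp1 dropped from 3.26 ± 0.405 to 0.174 ± 0.0869 CPM, or -4.16 on that scale (SE 0.54; adjusted p = 3.01e-06 by edgeR). The D2 values rest on 3 and 3 counts for Spp1 and 2 and 1 for Timp1, at or under the floor of 3 counts. Their SDs therefore understate the counting error, and the size of these falls is poorly known. For Fn1 the level fell from 26.3 ± 3.11 to 10.9 ± 0.249 CPM, or -1.28 (SE 0.13; adjusted p = 2.03e-07 by edgeR). These 3 genes had the same call under every alternative except the fit with all 6 libraries.

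Mmp2 (-1.70, SE 0.67), Tm4sf1 (-1.62, SE 0.62) and Col1a1 (-1.59, SE 0.65) fell with edgeR adjusted p of 0.0302, 0.0255 and 0.0349. None of these 3 calls held with DESeq2 (adjusted p between 0.137 and 0.206), and that of Mmp2 did not hold with limma on log2(TPM + 1) either (adjusted p = 0.0670). The Col1a1 change rested on its high value in NSC with naloxone: without that library its edgeR log2 fold change was 0.44 (adjusted p = 0.687). Mmp2 and Tm4sf1 also lost their call without it (-1.37 and -1.10) and without D2 with DAMGO (-1.42 and -1.09).

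Col1a2 (-2.17, SE 0.98), Bgn (-1.32, SE 0.89) and Col3a1 (-0.99, SE 0.92) did not pass, with edgeR adjusted p of 0.0543, 0.187 and 0.332. With ligand as a term, which pairs the states within a ligand, Col1a2 fell (-1.81; edgeR, adjusted p = 0.0329), as it did with no filter beyond 1 count (-2.18; edgeR, adjusted p = 1.22e-05). Without D2 with DAMGO, Col1a2 (-4.21) and Bgn (-1.86) fell, and without NSC with DAMGO all 3 did (-2.99, -2.12 and -1.77). Without D2 with naloxone Col1a2 fell (-1.40), and without NSC with naloxone all 3 values changed sign. Set within each ligand, Col1a2 went from 57 to 1 counts between NSC and D2 with naloxone but from 0 to 8 with DAMGO. Bgn went from 31 to 3 and from 0 to 6. The state difference of these genes thus had opposite directions in the 2 ligand pairs.

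S100a6 rose from 0.185 ± 0.261 to 1.74 ± 0.542 CPM, or 2.91 on the log2 scale (SE 0.70; adjusted p = 0.00123 by edgeR). It was tested only because the D2 control, in which it is high, carried it past the filter. With no filter beyond 1 count in the 4 ligand libraries it rose as well (adjusted p = 4.11e-05 by edgeR). It rose in all the alternatives in which it was tested, with a fitted value of 6.94 without NSC with naloxone, where the remaining NSC library had 0 counts and the value depends on the prior count. With all 6 libraries fitted together, with terms for state and for ligand, which lets the D2 control in, S100a6 was the 1 member of 10 that passed (log2 fold change 4.83, SE 0.69; edgeR, adjusted p = 3.83e-05). That fit uses the D2 control, for which the genes were picked, so this pass supports nothing. Spp1 had a log2 fold change of 0.29 (SE 0.80) in the same fit. Adding the controls therefore moved Spp1 from the fall of the ligand libraries to no call.

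**Figure D4:**
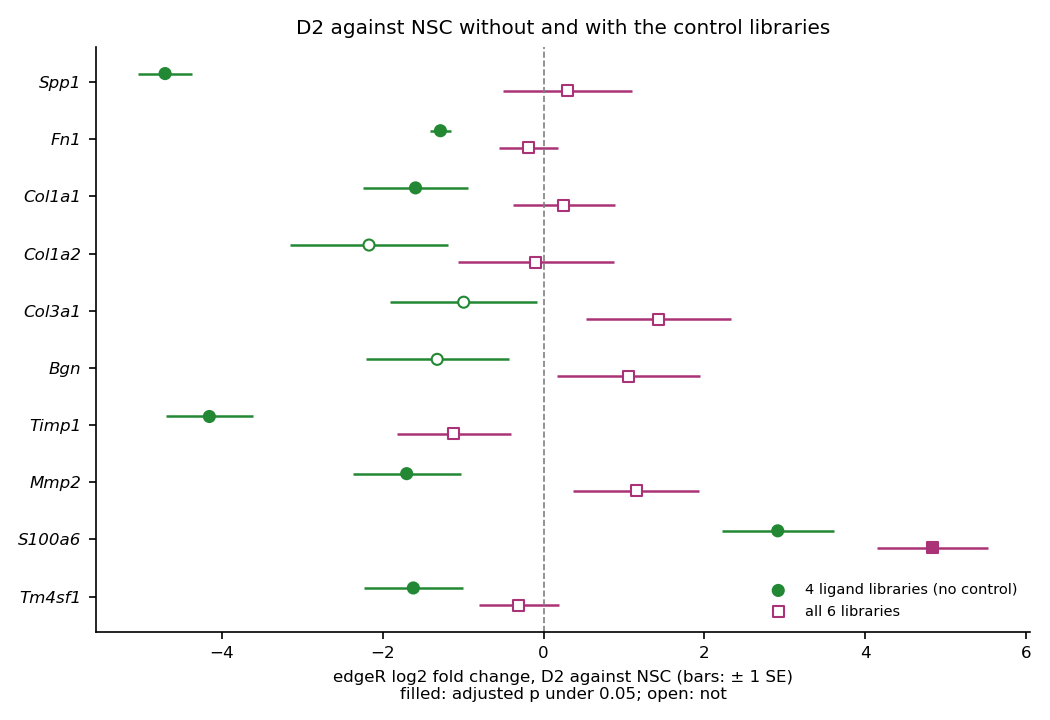
edgeR log2 fold change of D2 against NSC for each gene with bars of 1 SE, from the 4 ligand libraries (green circles) and from all 6 libraries (purple squares); filled symbols have an adjusted p under 0.05. From the ligand libraries 7 genes are filled, and with both controls and a ligand term added S100a6 alone is, while Spp1 moves from -4.71 to 0.29. The fit with all 6 libraries uses the D2 control, for which the genes were picked, so its call supports nothing.

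Most other matrix genes did not share the excess in the D2 control. Over 13 lists of matrix and related genes, 152 genes besides the members were tested, and 2 of them, Thbs2 and S100a4, were at least 2-fold higher in the D2 control than in both D2 ligand libraries. This is 1.32% of the 152, against 0.333% of all tested genes and 1.79% of those with 10 to 50 mean counts, the range of both genes. Thbs2, a thrombospondin, had 25, 4 and 5 counts in D2, and S100a4, a calcium-binding protein of mesenchymal cells, had 48, 16 and 15. The median log2 ratio of the D2 control over D2 with naloxone was 0.02 over the 152 genes and 0.00 over all tested genes. With differentiation 73 of the 152 rose (48.0%) and 52 fell (34.2%) in the ligand libraries, against 37.9% and 38.2% of all tested genes. The counts per list that follow are to be read against these shares, and no list was tested against other genes.

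Among the 7 other collagens of the fibrillar and associated list 0 exceeded 2-fold in the D2 control, and 1 rose and 3 fell with differentiation. Col5a1, a chain of the fibrils of types I and V, had 186, 168 and 132 counts in D2, and Col16a1 had 234, 177 and 207. Of 16 basement membrane genes 8 rose and 6 fell, and the abundant Sparc, a collagen-binding glycoprotein, rose (log2 fold change 1.30, SE 0.07) with 320 CPM in the D2 control against 354 and 326 with the ligands. Of 16 genes that modify and crosslink collagen, 9 rose and 5 fell, and P4hb, a subunit of prolyl hydroxylase, had 4947, 4028 and 4315 counts in D2. The only other small leucine-rich proteoglycan tested, Prelp, rose (2.02, SE 0.31).

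Large proteoglycans of neural tissue rose in 5 cases and fell in 4 of 10, with Ncan, the neurocan gene, at 1.59 (SE 0.04). Of 15 other matricellular and adhesive glycoproteins 7 rose and 6 fell. Among them Tnc, the tenascin of the stem cell niche, fell from 2005 and 2003 CPM in NSC with naloxone and DAMGO to 189 and 158 CPM in D2 (-3.54, SE 0.07), and it had 162 CPM in the D2 control. Of 14 other metalloproteinases and inhibitors 8 rose and 3 fell, and Timp3, an inhibitor bound to the matrix, went opposite to Timp1, from 28.6 to 361 CPM with naloxone and from 27.0 to 320 CPM with DAMGO (3.60, SE 0.09). Of 14 other S100 and annexin genes 8 rose and 4 fell. The tetraspanin list had 9 that rose and 3 that fell of 14, and its members Cd81 (0.65, SE 0.05) and Tspan7 (3.46, SE 0.06) rose.

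Receptors for these ligands were measured in the same libraries. Of 18 receptors for osteopontin, fibronectin and collagen 5 rose and 10 fell, and 0 was at least 2-fold higher in the D2 control. Cd44, a receptor of osteopontin and hyaluronan, fell from 26.9 to 29.3 CPM in the 3 NSC libraries to 12.6 to 13.7 CPM in the 3 D2 libraries (-1.08, SE 0.12). Itga5, the alpha chain of the fibronectin receptor, fell (-1.73, SE 0.16), as did its partner Itgb1 (-0.76, SE 0.06) and Itgav (-0.30, SE 0.07), an alpha chain that pairs with several beta chains. Itgb3, a partner of Itgav in osteopontin binding, was too low to be tested, with 4 to 9 counts. Of 13 genes of TGF-beta signalling, which drives collagen synthesis in fibroblasts, 6 rose and 3 fell. Of 13 YAP and SRF targets 9 rose and 3 fell, and of 5 mesenchymal transcription factors 0 rose and 3 fell. None of these 3 lists had a gene 2-fold higher in the D2 control.

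Markers of other cell types were read in the same libraries, and their part in the result was not tested. The fibroblast and meningeal list of 15 genes summed to 1980 to 2045 CPM in D2 and 2800 to 2900 CPM in NSC, most of it Vim, which neural progenitors also express. Of the 15, 13 had a count in the D2 control and 12 in NSC with naloxone, against 7 to 9 in the other 4 libraries, and Fap was at 0 throughout. Detection depends on depth, and these were the deepest libraries of their states, with 10218358 and 13561250 expected counts. Over all genes, 17337 had a count in the D2 control, against 17129 with naloxone and 17514 with DAMGO. In NSC 17859 did so with naloxone, against 17396 in the control and 17165 with DAMGO. Dcn, the proteoglycan decorin, had 0, 6 and 0 counts in NSC and 11, 1 and 0 in D2. Lum and Ogn, proteoglycans of the same family, each had 3 counts in NSC with naloxone, 2 in the D2 control and 0 in the other 4 libraries. These proteoglycans were named after their values were seen, and other low markers of the list differed. Slc6a13 had 6, 4 and 1 counts in NSC and 0, 1 and 0 in D2. Slc47a1 had 1, 2 and 2 in NSC and 1, 0 and 0 in D2. Dpt and Aldh1a2 had 2 and 3 counts in the D2 control and 0 in every other library. The 10 markers of this list with at most 50 counts in every library, a subset chosen after their values were seen, summed to 96 counts in the D2 control and 29 and 24 with the ligands. In NSC they summed to 15, 30 and 9. S100a4, with 48, and Col6a3, with 27, made up most of the 96. The abundant members of the list were within 2-fold between the D2 control and each D2 ligand library. The log2 ratio of the D2 control to D2 with naloxone and with DAMGO was -0.06 and 0.00 for Vim. It was 0.24 and 0.18 for Pdgfra, which the oligodendrocyte list also holds, and 0.25 and 0.11 for Thy1. For Igfbp5 it was -0.19 and 0.05, and for Pdpn 0.05 and 0.01.

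Markers of pericytes and smooth muscle summed to 138 to 152 CPM over the 6 libraries. Cspg4, which the oligodendrocyte list also holds, made up most of this sum. Acta2, a smooth muscle actin, had 6, 13 and 2 counts in NSC and 94, 43 and 46 in D2. Pdgfrb, a pericyte receptor, had 1, 2 and 0 in NSC and 78, 73 and 71 in D2. Myl9 had 10, 14 and 6 in NSC and 212, 207 and 222 in D2. Other tested markers of the list went both ways. Mcam had 138, 166 and 116 counts in NSC and 37, 44 and 48 in D2 (log2 fold change -1.24, SE 0.17). Cspg4 fell as well (-0.54, SE 0.07), whereas Tagln rose (1.83, SE 0.34). The sums were 4.01 to 7.93 CPM for 11 endothelial markers, with Cldn5 at 0 in all libraries, and 1.57 to 3.85 CPM for 12 markers of microglia and macrophages, with Cx3cr1, Tyrobp, C1qa, C1qb and C1qc at 0. Schwann and neural crest markers summed to 35.1 to 40.8 CPM in D2 and 15.1 to 16.5 CPM in NSC. Sox10, also on the oligodendrocyte list, made up most of the D2 sums, with 31.5 CPM in the D2 control. Astrocyte markers stood at 7592 to 7828 CPM and oligodendrocyte markers at 6220 to 6986 CPM in D2, with the D2 control the highest in each. The neuron list was at 1233 to 1467 CPM, the ependymal and choroid plexus list at 6.50 to 29.2 CPM and the pluripotent list at 2.15 to 16.6 CPM.

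Likeness in pattern was measured as the Pearson correlation of log2(CPM + 1) over the 6 libraries with the mean standardised profile of the 10 genes, among 9890 genes with a mean of at least 10 CPM. The closest were Ttc30a1 (0.987), H2-D1, a class I antigen presentation gene (0.958), Chd1l (0.927), Zfp653 (0.924) and Arid1a (0.911). Ier5, Ptpro, Ap2a1, Map2k6 and Nwd1 followed, at 0.898 to 0.878. H2-D1 had 121, 186 and 99 counts in NSC and 190, 84 and 104 in D2, a narrower range than that of most members. With 6 libraries such coefficients are a description.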

How the data were processed

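Trizol RNA and a TruSeq RNA kit were used, per the labels' protocols. Bowtie, RSEM and the build mm10 are named in the submitters' processing notes, and their versions and the annotation are not given in the sources. The authors deposited, for each gene, expected counts, TPM values and a mean transcript length. Symbols matched 28756 of 29267 identifiers, and coordinates came from GENCODE M21.

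Rounding the expected counts to integers moved totals by at most 21.7. All genes that averaged 10 counts or more entered edgeR 4.0.16 in R 4.3.3 (TMM, glmQLFit and glmQLFTest, Benjamini-Hochberg, threshold 0.05), fitted to the whole table. State was compared over the naloxone and DAMGO libraries with 2 residual degrees of freedom. Ratios of 2 libraries used exact binomial 95% intervals, and 2-fold differences were read from log2 CPM with a prior count of 2. A count of 0 was given a floor of 3 counts per library. DESeq2 1.42.0 and limma 3.58.1 served alternatives, along with other scalings, filters and left-out libraries. Scripts were tested on simulated data. The share among genes of 10 to 50 mean counts and the filter without the D2 control were added after seeing the data. By rule, named genes were the members, up to 4 genes per list (the most abundant with a 2-fold excess, otherwise the 2 most abundant), 5 receptors and the 10 most alike genes. For marker lists the rule was up to 3 markers of highest CPM in the D2 control, but it was not kept throughout. Other markers, Igf2, H19 and the remaining genes outside the rules were named after their values were seen. Syn1 was named for its overlap with Timp1. The members, lists and rules were chosen with earlier results of these data known.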

Additional observations from a re-analysis of the deposited data

Results flagged for a closer look

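Naloxone and control differed in opposite directions in the 2 states for 4 genes, each by at least 2-fold and with a counting interval that left out 1. The log2 ratio of naloxone over control, with a prior count of 2, was 1.74 in NSC and -2.29 in D2 for Col1a1. It was 2.94 and -3.07 for Col1a2, 2.46 and -2.90 for Col3a1, and 2.37 and -3.21 for Bgn. The difference between the states was not tested, since each side is 1 library against 1, and the D2 side was used to pick the genes.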

How the results depend on the processing

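The labels give no replicate numbers, and each group is 1 library. The count of 7 members called between D2 and NSC became 8 with ligand as a term, which pairs the states within a ligand, 8 with no filter beyond 1 count, 5 of 6 with genes filtered without the D2 control, 4 with DESeq2, 1 with all 6 libraries, and 4 to 10 when 1 of the 4 libraries was left out, with 4 without NSC with naloxone and 10 without NSC with DAMGO. A group left with 1 library was assumed to vary like the other. Over all genes the count of 10069 lay between 9071 and 10010 with a library left out. With all 6 libraries the log2 fold change changed sign for Spp1 (0.29), Col1a1 (0.25), Col3a1 (1.42), Bgn (1.06) and Mmp2 (1.15). Without NSC with naloxone it changed sign for Col1a1 (0.44), Col1a2 (5.23), Col3a1 (4.88) and Bgn (5.23), none past the threshold and the last 3 fitted against 0 counts, whereas the lowest values with 1 library left out were -2.25, -4.21, -1.77 and -2.12 for these 4. With limma on log2(TPM + 1) it changed sign for Col3a1 (0.02) and Bgn (0.13). The 2 members that differed between NSC with DAMGO and the NSC control became 0 with TPM. The 1 that differed between D2 with naloxone and with DAMGO became 2 with a prior count of 0.5 and 0 with TPM. Beyond what the alternatives build in, the cause was not tested. Depth limits 8 of the 10 genes, whose means are at most 50 counts.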
